A study of Picea abies with 36 samples.

Results

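In Norway spruce (Picea abies) hypocotyls, a group of 150 genes had more transcript under auxin on every day sampled, whereas their level stayed close to that of the mock when a cytokinin was given together with the auxin, and also when the cytokinin was given alone. The group was chosen from the measured values. For each gene, the mean CPM (counts scaled to a common library total) of a treatment on a day, with 1 CPM added, was divided by the same quantity in the mock of that day, and the log2 of this ratio is called the response here. Genes were taken whose response to auxin was at least 0.7 on all 3 days, whose response to cytokinin alone stayed within 0.5 of zero on all 3 days, and whose response to both hormones stayed under 0.5 on all 3 days. Of 70736 genes in the table, 1940 met the limit on auxin and 166 met all limits, and the 150 with the largest smallest response to auxin are the members described. All 150 passed the filter on low counts that left 38732 genes for testing.

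The seedlings were wild type, of the seed source FP-518 TreO G7 Söregärde, and the middle hypocotyl (the stem below the seed leaves) was sampled. Lanolin paste was applied with 50 mM indole-3-acetic acid (IAA, the main natural auxin), with 135 mM 6-benzylaminopurine together with that IAA (BAP+IAA), with 135 mM 6-benzylaminopurine (BAP, a synthetic cytokinin), or with no hormone (Mock). Tissue was taken on day 5, day 10 and day 15, giving 12 groups of 3 libraries, each from several pooled plants, and 36 libraries in all. The study also gives the BAP dose in another unit in a figure legend, so the applied dose is uncertain. A single dose of each hormone was used.

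As background, auxin enters the nucleus and brings F-box receptors together with AUX/IAA repressor proteins, which are then degraded, so that auxin response factors can switch on their target genes. Cytokinin is sensed by membrane histidine kinases and a phosphorelay that ends in response regulators, some of which induce AUX/IAA repressors or change the abundance of PIN auxin carriers in Arabidopsis. In stems, auxin is known for its role in cambium activity and xylem formation, and cytokinin for its role in cambial cell division.

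Total counts lay between 13188942 and 23110495 per library. The common biological coefficient of variation was 20.9%, and the members' median coefficient of variation among the 3 IAA libraries of a day was 32.8% on day 5, 23.8% on day 10 and 34.7% on day 15. Each value comes from pooled tissue, so fewer cells of a type and less RNA per cell cannot be told apart. A xylem marker, PaVND4-like, lay between 35.7 and 43.2 CPM in IAA libraries of day 10, between 11.3 and 17.7 CPM in BAP+IAA libraries, between 22.4 and 24.7 CPM in BAP libraries and between 51.7 and 68.6 CPM in Mock libraries. Another xylem marker, PaPRX66-like, lay between 3.60 and 12.1 CPM in the IAA libraries of that day and between 8.00 and 13.7 CPM under BAP+IAA. It lay between 0.92 and 3.64 CPM under BAP and between 0.213 and 0.296 CPM in Mock. The marker of dividing cells, PaCDKB2;2-like, lay on day 10 between 76.9 and 88.7 CPM under IAA and between 85.9 and 106 CPM under BAP+IAA. It lay between 102 and 110 CPM under BAP and between 50.7 and 63.3 CPM in Mock. On day 5 PaVND4-like lay between 33.3 and 37.2 CPM under IAA and between 26.3 and 48.1 CPM in Mock. On day 15 it lay between 26.1 and 40.7 CPM under IAA and between 74.0 and 80.9 CPM in Mock. The phloem marker PaAPL-like stayed between 1.59 and 5.59 CPM in all 36 libraries. The part of these cell types in the members' values was not tested.

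The median response of the members to IAA was 1.23, 2.26 and 1.74 on days 5, 10 and 15, and the largest was 6.32. Their median response to BAP+IAA was 0.04, 0.05 and 0.11 on the same days, and to BAP -0.02, -0.01 and 0.00. These values are those the members were chosen by and are given as a description. The smallest response to IAA was 0.756 for member 149, an ABC transporter, and 0.741 for member 150, MA_131122g0020, against 0.740 for MA_183474g0010 and 0.737 for MA_238039g0010, the genes just past the limit, so the end of the list is not a gap in the data.

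**Figure D1:**
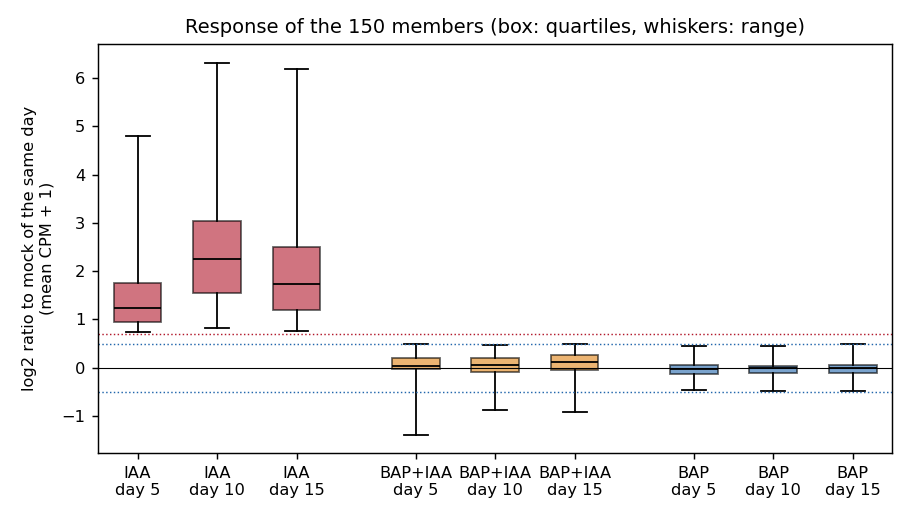
The log2 ratio to the mock of the same day (mean CPM plus 1) for the 150 members under IAA, BAP+IAA and BAP on days 5, 10 and 15. Boxes give the quartiles with the median as a line, whiskers the full range, and dotted lines the limits of 0.7 and 0.5 used to choose the members; the median response to IAA is 1.23, 2.26 and 1.74, and the medians under BAP+IAA and BAP lie between -0.02 and 0.11.

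Most members were scarcely detected without auxin alone. The mean over the 9 Mock libraries was under 1 CPM for 107 members, from 1 to 10 CPM for 28 and at least 10 CPM for 15, and 18 members had no count in any Mock library. The median over the members of the mean CPM was 5.17 under IAA, 0.240 under BAP+IAA, 0.143 under BAP and 0.169 in Mock. Since 1 CPM was added before the ratio, the response understates the fold change of such low genes. In edgeR's fit of the counts that 1 CPM was not added. There the median log2 fold change of BAP+IAA over Mock was 0.30, 0.33 and 0.43 on days 5, 10 and 15. It was above 0 for 89, 94 and 100 of the 150 members, and the median over all genes tested lay between 0.003 and 0.018. Many of these values rest on few counts, and the rule limited the same groups, so they are a description.

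Summed over the 107 members that were under 1 CPM in Mock, the level lay between 304 and 459 CPM in the IAA libraries of day 5, between 843 and 1106 CPM on day 10 and between 449 and 768 CPM on day 15. The same sum lay between 18.8 and 41.0 CPM in the 9 BAP+IAA libraries, between 10.97 and 17.1 CPM in the 9 BAP libraries and between 13.9 and 22.01 CPM in the 9 Mock libraries. The highest BAP+IAA value, 41.0 CPM, came from replicate 1 of day 15, which was also the highest of its group of 3 for 79 of the 150 members. The other BAP+IAA libraries reached at most 26.97 CPM.

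**Figure D2:**
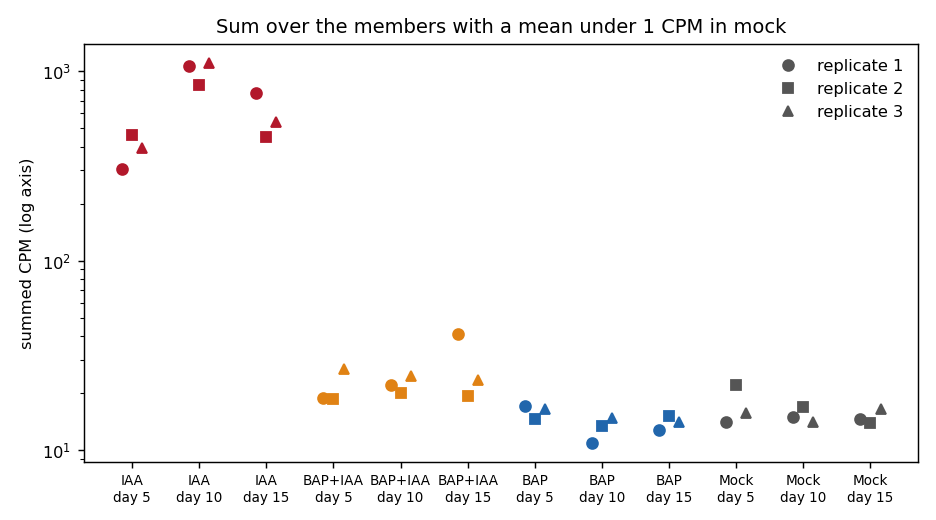
Summed CPM (log axis) over the 107 members with a mean under 1 CPM in Mock, per library, with a symbol for each replicate. IAA libraries sit between 304 and 1106 CPM, BAP+IAA libraries between 18.8 and 41.0 CPM with replicate 1 of day 15 highest, BAP libraries between 10.97 and 17.1 CPM and Mock libraries between 13.9 and 22.01 CPM.

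All 3 IAA libraries lay above all 3 Mock libraries for 144 members on day 5, 150 on day 10 and 150 on day 15, beside 26.8%, 22.8% and 21.8% of all genes tested. They lay above all 3 BAP+IAA libraries for 138, 149 and 142 members, beside 13.8%, 19.1% and 19.0% of all genes tested. For 106 members every IAA library was above all 27 other libraries, beside 1.17% of all genes tested. The rule used these groups, so nothing is read from the counts. With edgeR's quasi-likelihood test (a gene was called where P, adjusted by Benjamini-Hochberg over all genes tested, was below 0.05 and the level changed more than 1 on the log2 scale), 141, 149 and 146 members were called higher under IAA than in Mock on days 5, 10 and 15, beside 11.3%, 10.1% and 9.86% of all genes. In the comparison of BAP+IAA with IAA, 121, 145 and 140 members were called lower, beside 3.46%, 9.96% and 10.5% of all genes.

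**Figure D3:**
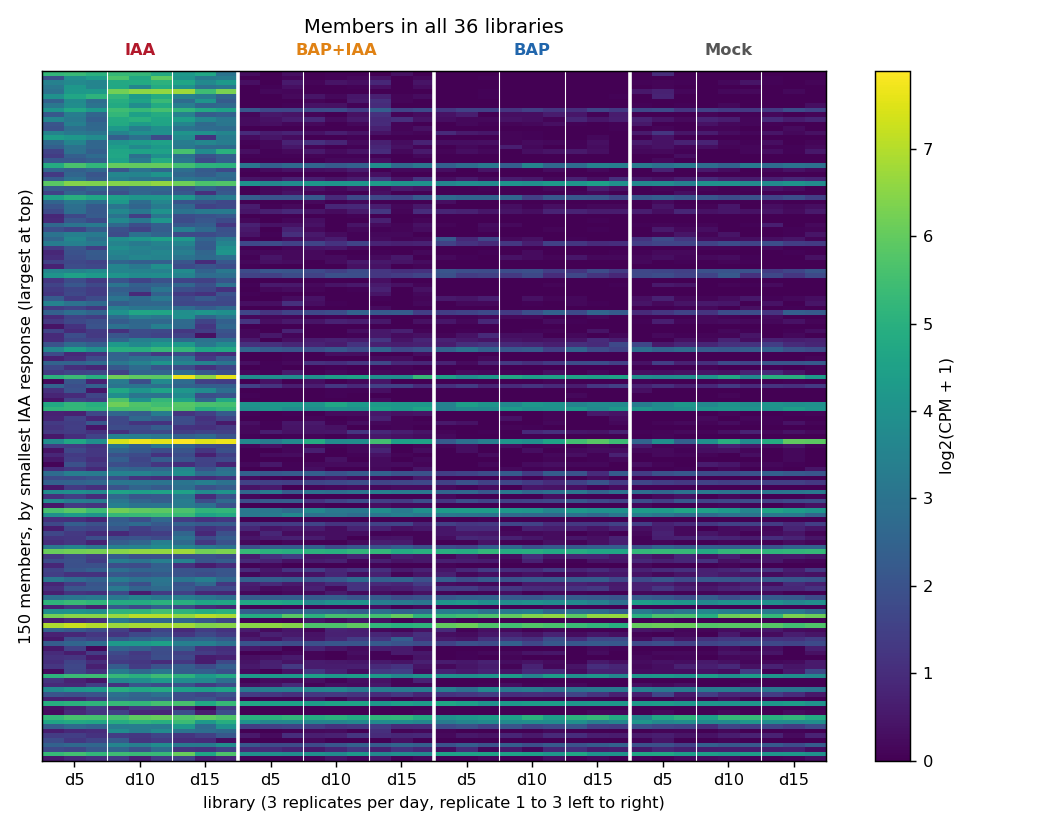
log2(CPM + 1) of each of the 150 members (rows, largest smallest response to IAA at the top) in the 36 libraries (columns, by treatment, day and replicate). Over most rows the 9 IAA columns are lighter than the 27 BAP+IAA, BAP and Mock columns. Those 27 columns are lightest in the rows of the 15 members with at least 10 CPM in Mock, and intermediate for the 28 with 1 to 10 CPM.

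The members are known here mainly by the descriptions that the study's tables of responsive genes give. Those tables were held only in part and list genes the study called, so their coverage follows the IDs and not the biology. A description was found for 72 members, of which 66 were other than unknown. Of the lists used, lignin and phenolics held 6 members of 187 tested, transcription factors 6 of 198 and receptors and kinases 6 of 353. Defence held 4 of 104, transporters 3 of 150, ethylene 2 of 31 and cytochromes P450 2 of 71. Auxin held 1 of 51, other hormones 1 of 25, the study's graft transcription factors 2 of 61 and its laccases 1 of 62. No member was among the 55 pectin methyl esterases, 23 beta-1,4-glucanases and 32 pectate and pectin lyases tested from the study's lists. None was among the 211 cell wall, 41 cell division and 5 cytokinin genes tested, or among the other genes the study names. Over all genes tested, 150 of 38732 were members, so lists this short may hold none, and nothing is read from these counts.

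The genes of phenolic and lignin chemistry included a dirigent protein, a family that steers the coupling of phenolic radicals. The dirigent MA_138591g0010 had 3.55, 9.13 and 5.00 CPM in the IAA libraries of day 5, 36.6, 21.2 and 28.2 CPM on day 10 and 10.1, 3.89 and 4.51 CPM on day 15. It had at most 1.20 CPM in the BAP+IAA libraries, at most 0.535 CPM in the BAP libraries and at most 0.117 CPM in the Mock libraries. Every IAA library was thus above every other library, and day 10 did not overlap with the other days. Summed over the 3 libraries of day 10, it had 1490 counts under IAA, against 6 under BAP+IAA and 2 in Mock, a ratio of IAA to BAP+IAA of 227 (exact 95% interval 104 to 620, counting error only).

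All 4 genes described as peroxidase 57-like in those tables were members. Such class III peroxidases are secreted enzymes that oxidise phenolic compounds in the cell wall. MA_180710g0010 had 1.53, 4.89 and 3.24 CPM under IAA on day 5, 11.3, 10.9 and 15.8 CPM on day 10 and 5.03, 4.00 and 5.87 CPM on day 15. It had no count in any BAP or Mock library and 6 counts in all 9 BAP+IAA libraries, so IAA was at least 201-fold higher than Mock on day 10, taking 3 counts over the 3 Mock libraries as the floor. MA_10428075g0010 had between 6.48 and 24.3 CPM under IAA on day 10, 9 counts in all BAP+IAA libraries, 0 in BAP and 4 in Mock. MA_10372670g0010 had between 3.68 and 7.35 CPM on day 10, and 23, 0 and 0 counts in the BAP+IAA, BAP and Mock libraries. MA_10293471g0010, named after its values were seen, had between 0.933 and 4.87 CPM on day 10, and 9, 0 and 0 counts in the same groups. The treatment of reads with several alignments was not stated, so the 4 may share reads and are uncertain as separate genes.

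Laccases are copper oxidases that oxidise monolignols. Laccase 12 (MA_97119g0020), the only laccase among the members, had 13.5, 25.2 and 14.3 CPM under IAA on day 5, 170, 211 and 189 CPM on day 10 and 236, 184 and 204 CPM on day 15. BAP+IAA libraries had 12.01, 9.02 and 12.7 CPM, 27.8, 12.98 and 13.7 CPM, and 44.7, 21.2 and 22.5 CPM on the same days. BAP libraries had 3.79, 6.60 and 9.36 CPM, 16.4, 14.2 and 22.8 CPM, and 43.9, 56.6 and 41.3 CPM, and Mock libraries 4.81, 14.3 and 4.39 CPM, 15.0, 30.6 and 13.2 CPM, and 27.9, 61.9 and 58.2 CPM. The level was thus higher on day 15 than on day 5 in all 4 treatments, and the IAA libraries stood clear of the rest on days 10 and 15 but overlapped with Mock on day 5. Of the 62 laccases tested from the study's list, 9, 13 and 13 were called higher and 24, 24 and 31 lower under IAA than in Mock on days 5, 10 and 15, and 15, 15 and 9 higher and 34, 39 and 39 lower under BAP+IAA. Over all genes tested, 11.3%, 10.1% and 9.86% were called higher and 12.2%, 8.63% and 5.99% lower under IAA on these days. Under BAP+IAA the shares were 10.2%, 10.0% and 11.4% higher and 11.0%, 11.5% and 11.2% lower, and all of these stand for the other lists below. The keyword lists rest on the study's tables of genes it called, in part from these data. That choice raised their shares called, so nothing is read from a share above that of all genes.

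Among the transcription factors, the basic helix-loop-helix factor bHLH49 (MA_28961g0020) was already well expressed in Mock. It had 58.1, 85.0 and 81.1 CPM under IAA on day 5, 85.7, 81.5 and 95.0 CPM on day 10 and 69.8, 49.6 and 52.8 CPM on day 15. It lay between 11.4 and 18.7 CPM in the BAP+IAA libraries, between 11.1 and 20.5 CPM in the BAP libraries and between 9.70 and 15.5 CPM in the Mock libraries. The IAA libraries were clear of all others, whose 3 groups overlapped. The IAA to Mock ratio of summed counts was 6.84 on day 5 (6.25 to 7.49), 6.46 on day 10 (5.95 to 7.03) and 4.15 on day 15 (3.81 to 4.52).

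MYB31 (MA_55123g0010), a MYB factor that with bHLH49 is on the study's list of graft transcription factors, lay below the mock when both hormones were given. It had 4.73, 4.76 and 5.74 CPM under IAA on day 5, 7.75, 10.2 and 15.5 CPM on day 10 and 10.7, 10.4 and 7.41 CPM on day 15. BAP+IAA libraries had 0.261, 0.0602 and 0.148 CPM on day 5, 1.18, 1.04 and 1.38 CPM on day 10 and 2.22, 0.886 and 0.817 CPM on day 15, against 0.313, 1.75 and 0.643 CPM, 1.11, 2.40 and 2.08 CPM, and 3.21, 3.23 and 3.68 CPM in Mock. On days 5 and 15 all BAP+IAA libraries were below all Mock libraries. Under BAP alone the means of MYB31 were 0.504, 1.37 and 2.36 CPM on the 3 days, also under the Mock means of 0.904, 1.86 and 3.38 CPM.

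Both members on the ethylene list are factors of the AP2/ERF family, and both were highest on day 5. ERF086-like (MA_24801g0010), whose Arabidopsis counterpart PUCHI acts in lateral root initiation, had 10.2, 6.84 and 5.54 CPM under IAA on day 5, 3.97, 5.05 and 5.18 CPM on day 10 and 2.209, 2.196 and 2.192 CPM on day 15. LEP-like (MA_103035g0010), named after LEAFY PETIOLE of Arabidopsis, had 6.96, 9.52 and 8.38 CPM, 2.56, 6.64 and 4.87 CPM, and 2.43, 2.48 and 3.03 CPM. In the other libraries ERF086-like reached at most 1.14 CPM and LEP-like at most 1.09 CPM, in both cases in replicate 3 of BAP+IAA on day 5.

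LOB domain-containing 37 (MA_122595g0010), which in Arabidopsis represses nitrogen-responsive genes, was detected at 27.9 CPM or more in every library. Under IAA it had between 73.6 and 89.1 CPM on day 5, between 99.96 and 132 CPM on day 10 and between 95.9 and 130 CPM on day 15, against 27.9 to 55.8, 32.9 to 46.05 and 33.2 to 62.1 CPM under BAP+IAA, 39.05 to 50.1, 61.2 to 95.3 and 59.4 to 99.4 CPM under BAP and 31.0 to 48.8, 29.2 to 80.1 and 37.5 to 77.9 CPM in Mock. On day 15 the IAA and BAP libraries overlapped. AT-hook nuclear-localized 22-like (MA_284g0020), of a family of DNA-binding proteins that restrain hypocotyl growth in Arabidopsis, had between 66.7 and 76.5, 87.6 and 97.0, and 73.2 and 106 CPM under IAA on the 3 days, between 27.05 and 38.4 CPM in the BAP+IAA libraries and between 27.2 and 41.7 CPM in Mock. Its neighbour on the same scaffold, MA_284g0010, was also a member, with between 18.1 and 40.9 CPM under IAA, between 10.8 and 15.1 CPM under BAP+IAA and between 11.8 and 16.7 CPM in Mock. Of the 198 transcription factors tested from the keyword list, 101, 104 and 104 were called higher under IAA on days 5, 10 and 15 and 79, 73 and 76 under BAP+IAA, beside 10.2%, 10.0% and 11.4% of all genes called higher under BAP+IAA.

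**Figure D4:**
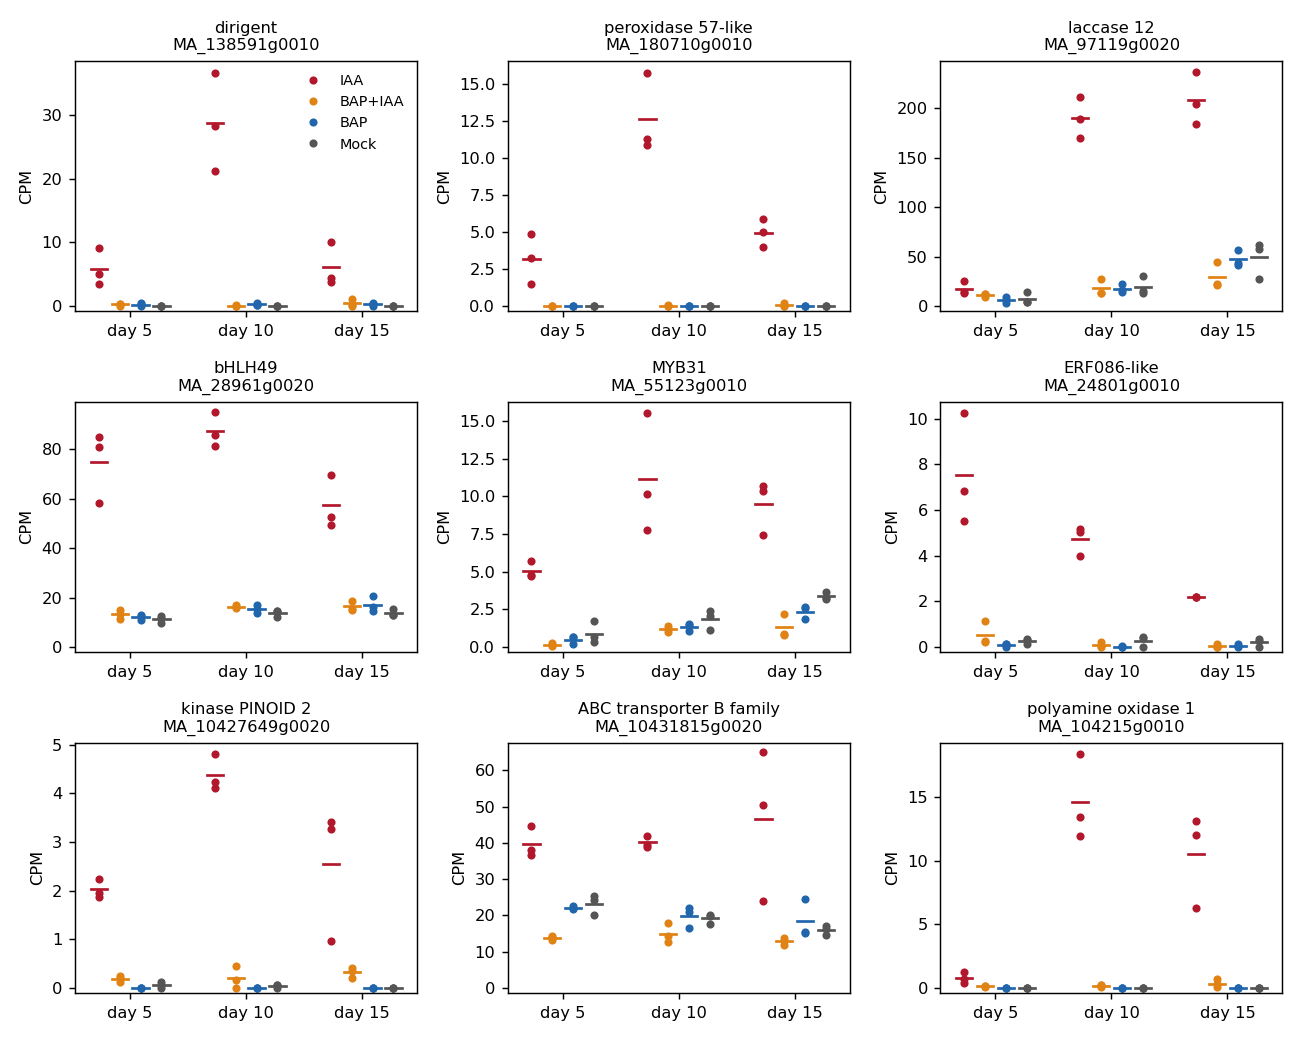
CPM of 9 members in each library (points) with the mean of the 3 libraries (bars), for IAA, BAP+IAA, BAP and Mock, left to right within each of days 5, 10 and 15. In 7 of the 9 panels the IAA points lie above all points of the same day. Laccase 12 overlaps on day 5 (lowest IAA 13.5 CPM, highest Mock 14.3 CPM), and ABC transporter B on day 15 (lowest IAA 24.1 CPM, highest BAP 24.4 CPM).

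The single member on the auxin list was a kinase related to PINOID, which in Arabidopsis phosphorylates PIN auxin carriers. Kinase PINOID 2 (MA_10427649g0020) had 1.88, 2.25 and 1.96 CPM under IAA on day 5, 4.81, 4.12 and 4.23 CPM on day 10 and 3.26, 0.957 and 3.42 CPM on day 15. It had 0.131, 0.241 and 0.198 CPM, 0, 0.173 and 0.460 CPM, and 0.420, 0.341 and 0.204 CPM in the BAP+IAA libraries, no count in any BAP library and 5 counts in all Mock libraries. A second gene model of that description on the same scaffold, MA_10427649g0010, was not a member but had a similar course. Its edgeR log2 fold change against Mock was 6.465, 8.363 and 7.275 under IAA on days 5, 10 and 15. Under BAP+IAA it was 2.826, 3.732 and 4.502. The member had 4.901, 6.519 and 8.397 under IAA and 1.505, 2.209 and 5.406 under BAP+IAA. Of the 51 auxin genes tested from the keyword list, 34, 34 and 32 were called higher and 1, 1 and 3 lower under IAA than in Mock on days 5, 10 and 15. Under BAP+IAA 27, 26 and 31 were called higher and 1, 3 and 2 lower, and under BAP 1, 8 and 10 higher and 3, 7 and 5 lower, beside 3.04%, 4.99% and 7.0% of all genes called higher under BAP. The list comes from genes the study called, so its counts are not independent evidence of a direction.

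A candidate auxin transporter stood last but 1 in the list. ABC transporter B family member 19 (MA_10431815g0020), named after a protein that exports auxin from cells in Arabidopsis, had 37.9, 44.6 and 36.7 CPM under IAA on day 5, 42.0, 39.4 and 39.0 CPM on day 10 and 65.0, 24.1 and 50.5 CPM on day 15. BAP+IAA libraries had 14.1, 14.3 and 13.3 CPM, 14.4, 12.8 and 17.8 CPM, and 11.9, 13.7 and 12.9 CPM, against 24.2, 25.2 and 20.0 CPM, 19.8, 17.7 and 20.2 CPM, and 16.4, 17.1 and 14.5 CPM in Mock. BAP+IAA lay below Mock without overlap on days 5 and 15, and on day 15 replicate 2 of IAA lay under the highest BAP library (24.4 CPM). ABC transporter G family member 26 (MA_114524g0010) had between 0.675 and 1.34 CPM under IAA on day 5, between 3.97 and 9.68 CPM on day 10 and between 1.41 and 5.69 CPM on day 15, and at most 0.540 CPM under BAP+IAA, 0.577 CPM under BAP and 0.180 CPM in Mock. The calmodulin-binding ion transporter MA_209948g0010 had between 2.44 and 15.1 CPM under IAA, at most 1.44 CPM under BAP+IAA and at most 0.804 CPM in Mock.

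Abscisic acid receptor PYL4 (MA_287316g0010) overlapped between treatments on day 5, with 0.209, 2.12 and 1.22 CPM under IAA, 0.196, 0 and 0.296 CPM under BAP+IAA and 0.188, 0.219 and 0.214 CPM in Mock. On day 10 it had 8.33, 5.38 and 7.35 CPM under IAA and at most 1.54 CPM elsewhere. Receptor kinase 2 (MA_2387347g0010) had between 0.878 and 11.3 CPM in the IAA libraries, at most 0.340 CPM in the BAP+IAA libraries and at most 0.354 CPM in Mock. The glycolytic enzyme phosphoglycerate kinase (MA_286042g0010), which the word kinase put on that list, had between 4.45 and 9.69 CPM under IAA, between 1.73 and 2.76 CPM under BAP+IAA and between 1.49 and 2.19 CPM in Mock.

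Of the members on the defence list, the disease resistance homologue MA_10428616g0010 had its highest level on day 15. It had 32.3, 40.2 and 29.8 CPM under IAA on day 5, 71.6, 60.3 and 59.1 CPM on day 10 and 199.6, 94.5 and 189 CPM on day 15, against at most 37.6 CPM under BAP+IAA and at most 30.6 CPM in Mock. A chitinase-like gene (MA_126635g0010) had between 2.32 and 6.81 CPM under IAA, at most 0.517 CPM under BAP+IAA and at most 0.658 CPM in Mock. The resistance gene MA_19276g0010 had between 2.82 and 4.92 CPM under IAA and at most 0.477 CPM under BAP+IAA and 0.292 CPM in Mock. For the CC-NBS-LRR receptor MA_10433143g0010 the IAA libraries lay above the others of the same day but overlapped across days, with between 1.22 and 3.42 CPM under IAA, between 0.180 and 1.32 CPM under BAP+IAA and between 0.180 and 0.709 CPM in Mock.

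The cytochromes P450 are oxidases of hormones and secondary metabolites. CYP78A7-like (MA_204253g0010) had between 1.13 and 4.94 CPM under IAA, at most 0.296 CPM under BAP+IAA and 4 counts in all Mock libraries. CYP709B2-like (MA_2268451g0010) had between 2.73 and 7.19 CPM under IAA, between 0.543 and 1.91 CPM under BAP+IAA and between 0.643 and 1.56 CPM in Mock. A pair of glycosyl transferase models on 1 scaffold had nearly the same values, between 7.90 and 13.9 CPM (MA_112910g0010) and between 7.96 and 16.8 CPM (MA_112910g0020) under IAA on day 10, with 12 and 18 counts in all BAP+IAA libraries and 0 counts in Mock for each. Whether they are copies or parts of 1 gene was not tested. Of the 187 genes tested from the lignin and phenolics list, 66, 94 and 86 were called higher and 29, 25 and 30 lower under IAA on days 5, 10 and 15, and 67, 81 and 72 higher and 41, 48 and 46 lower under BAP+IAA. On day 10, calls higher under IAA and under BAP+IAA numbered 59 and 37 of 104 defence genes and 78 and 47 of 150 transporters. They numbered 127 and 93 of 353 receptors and kinases and 36 and 28 of 71 cytochromes P450. For ethylene genes they were 17 and 15 of 31, and for graft transcription factors 21 and 20 of 61. In this order day 5 gave 59 and 56, 65 and 53, 139 and 131, 28 and 29, 16 and 16, and 20 and 15. Day 15 gave 59 and 52, 63 and 45, 102 and 122, 36 and 28, 18 and 17, and 20 and 26. On day 15 more receptors and kinases and more graft transcription factors were thus called higher under BAP+IAA than under IAA.

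The 10 members with the largest smallest response were, but for the dirigent and an NRT1/PTR transporter, without a description. MA_54830g0010 led, with 36.3, 38.7 and 32.1 CPM under IAA on day 5, 37.6, 37.0 and 26.0 CPM on day 10 and 17.8, 24.7 and 7.09 CPM on day 15. It had 14 counts in the 9 BAP+IAA libraries, 0 in the BAP libraries and 13 in the Mock libraries, all 13 in replicate 2 of day 5 (0.951 CPM). MA_126621g0010 had 6.82, 17.4 and 17.8 CPM, 73.0, 91.7 and 96.3 CPM, and 105, 42.0 and 77.6 CPM under IAA, with 4 counts under BAP+IAA, 1 under BAP and 25 in Mock. On day 10 its IAA level was at least 1412-fold higher than that of BAP+IAA, with the floor of 3 counts over the 3 BAP+IAA libraries. MA_7580809g0010 had no count in any BAP or Mock library, between 4.38 and 12.6 CPM under IAA on day 5, between 22.4 and 39.4 CPM on day 10 and between 3.87 and 15.9 CPM on day 15. NRT1/PTR-like MA_138189g0010, of a family that moves nitrate, peptides and some hormones, had between 4.96 and 27.1 CPM under IAA and at most 0.960 CPM under BAP+IAA and 0.212 CPM in Mock. MA_66372g0010, MA_3123g0020, MA_4342g0010 and MA_6067g0010 had between 2.85 and 59.5, 10.1 and 32.3, 6.93 and 27.6, and 4.77 and 35.6 CPM under IAA, and 12, 44, 14 and 31 counts in all BAP+IAA libraries. MA_301724g0010 alone of the 10 was above 1 CPM in every library, with between 16.1 and 46.3 CPM under IAA, between 1.78 and 4.202 CPM under BAP+IAA and between 1.34 and 2.75 CPM in Mock.

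The word silenced names the choice made by the rule and does not hold in full for each member. The share of the IAA response left under BAP+IAA (the difference of BAP+IAA from Mock in mean CPM, as a percentage of that of IAA from Mock) had a median of 1.35% on day 5, 0.407% on day 10 and 3.01% on day 15. It was at or below 0 for 61, 63 and 49 members and over 20% for 17, 4 and 6 members. The share is built from group means that the rule limited, so its low medians largely follow from the choice of members. Without replicate 1 of BAP+IAA on day 15 the median on that day was 0.416%, and 69 members were at or below 0. In edgeR's test 23 members were called higher under BAP+IAA than in Mock on at least 1 day, namely 8 on day 5, 6 on day 10 and 16 on day 15, beside 10.2%, 10.0% and 11.4% of all genes. As shares of the members these are 5.33%, 4.0% and 10.7%, not above those of all genes, and the rule capped the same values, so nothing is read from the counts. Polyamine oxidase 1 (MA_104215g0010), an enzyme that oxidises spermine, was called on each day, with 7, 8 and 16 counts under BAP+IAA and 0 in every Mock library, against 40, 778 and 550 counts under IAA. Kinase PINOID 2 (MA_10427649g0020) was called on day 15, with 15 counts under BAP+IAA and 0 in Mock. The 1 CPM added in the rule hides differences of this size.

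In contrast, 12 members had a response to BAP+IAA of -0.5 or lower on at least 1 day, and 8 were called lower than Mock on at least 1 day, 4 on day 5, 3 on day 10 and 3 on day 15, beside 11.0%, 11.5% and 11.2% of all genes. The lowest on average was MA_3726g0010, which has no description. It had 47.1, 57.8 and 42.1 CPM under IAA on day 5, 71.8, 61.1 and 59.1 CPM on day 10 and 48.99, 35.1 and 36.04 CPM on day 15. BAP+IAA libraries had 8.09, 7.82 and 6.08 CPM, 11.8, 8.08 and 7.87 CPM, and 13.7, 8.93 and 14.5 CPM, against 19.6, 19.2 and 23.8 CPM, 21.8, 18.2 and 10.8 CPM, and 23.1, 19.5 and 16.4 CPM in Mock, so that BAP+IAA lay below Mock without overlap on days 5 and 15. MA_120841g0010 had between 13.8 and 43.9 CPM under IAA, between 3.67 and 6.18 CPM under BAP+IAA and between 5.46 and 11.5 CPM in Mock. Under BAP alone 8 members were called on at least 1 day, 0, 1 and 1 higher and 1, 3 and 4 lower on days 5, 10 and 15, beside 3.04%, 4.99% and 7.0% of all genes higher and 5.81%, 7.89% and 8.19% lower.

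A pair of members on 1 scaffold without a known role lay above Mock on day 5 and below it on day 15 under BAP+IAA. MA_10429999g0020, among the 5 members with the most CPM under IAA, had 119, 149 and 126 CPM under IAA on day 5, 103, 112 and 112 CPM on day 10 and 107, 82.5 and 87.04 CPM on day 15. BAP+IAA libraries had 88.7, 93.2 and 85.6 CPM, 49.97, 50.03 and 59.9 CPM, and 35.8, 31.0 and 33.9 CPM, against 63.6, 69.1 and 66.2 CPM, 54.03, 55.9 and 57.5 CPM, and 54.5, 44.7 and 51.2 CPM in Mock. All BAP+IAA libraries were thus above all Mock libraries on day 5 and below them on day 15, and the share of the response left was 35.2% on day 5, -4.78% on day 10 and -39.2% on day 15. The neighbouring MA_10429999g0010 had shares of 29.04%, -2.16% and -36.04%. Under BAP alone the means of both genes also lay below those of Mock. On day 15 MA_10429999g0020 had 35.5 CPM under BAP, 33.6 CPM under BAP+IAA and 50.1 CPM in Mock, and MA_10429999g0010 had 9.54, 8.31 and 13.2 CPM. On day 5 their BAP means were 60.7 and 16.03 CPM, against 66.3 and 19.01 CPM in Mock. Between day 5 and day 15 both fell under BAP+IAA, by 1.44 on the log2 scale for MA_10429999g0020 (SE 0.11, edgeR adjusted P = 1.14e-09) and by 1.56 for MA_10429999g0010 (SE 0.16, 9.08e-08).

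Measures that the rule did not use were the changes between days within a treatment. The same libraries entered the rule, which asked for a response on each day but not for a difference between days. Under IAA the members were highest in the middle of the series. From day 5 to day 10, 60 of 150 members (40%) rose and 1 fell under edgeR's test, beside 9.01% of all genes called higher and 3.89% called lower. The median log2 fold change was 1.09 over the members and 0.03 over all genes tested. From day 10 to day 15, 1 member rose and 7 (4.67%) fell, beside 0.764% and 0.341% of all genes, with a median of -0.55. Without replicate 1 of IAA on day 10, or without replicate 3 on day 15, 1 member was called between these days, and without replicate 3 on day 10, or replicate 2 on day 15, 2 were. From day 5 to day 15, 26 members rose and 6 fell, beside 12.8% and 4.91% of all genes. Without replicate 1 of IAA on day 5, 3 fell. Counted by the mean, 115 members had their highest IAA level on day 10, 15 on day 5 and 20 on day 15. The share with the highest IAA mean on day 10 among all genes tested was 22.2%. Set against the change in Mock between the same days (an interaction term in the edgeR fit), 12 members had a larger response to IAA on day 10 than on day 5, beside 3.95% of all genes, and 0 a smaller one, beside 1.77%. From day 5 to day 15 the counts were 9 and 0, beside 5.85% and 2.59%, and from day 10 to day 15 they were 0 and 0, beside 0.0413% and 0.0284%. At an unadjusted P below 0.05, 32 were larger and 0 smaller in the first of these, 25 and 3 in the second, and 0 and 12 in the last. The rule used the responses that the interaction compares, so its counts are given as a description.

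The largest rises from day 5 to day 10 under IAA were of MA_740063g0010, polyamine oxidase 1 and MA_960928g0010. MA_740063g0010 had 0.348, 1.95 and 1.55 CPM on day 5, 50.6, 15.4 and 36.7 CPM on day 10 and 22.2, 4.96 and 25.8 CPM on day 15, a log2 fold change of 4.70 ± 0.78 (SE) from day 5 to day 10 (edgeR adjusted P = 0.0012) that DESeq2 did not call (adjusted P = 0.38). Polyamine oxidase 1 (MA_104215g0010) had 1.25, 0.692 and 0.405 CPM on day 5, 11.9, 13.4 and 18.4 CPM on day 10 and 13.1, 12.1 and 6.32 CPM on day 15, a change of 4.24 ± 0.48 to day 10 (adjusted P = 3.24e-06). MA_960928g0010 had 13.4, 8.84 and 12.8 CPM on day 10, against 0.557, 0.865 and 1.01 CPM on day 5 (3.85 ± 0.56, adjusted P = 6.95e-06). In each of these the libraries of the 2 days did not overlap. The only member to fall between these days was the blue copper-like gene MA_16141g0020, of a family of small electron carriers, with 4.23, 6.70 and 2.59 CPM on day 10, against 19.9, 17.05 and 13.04 CPM on day 5 (-1.87 ± 0.57, adjusted P = 0.0172). It was no longer called without replicate 1 of day 5, replicate 1 of day 10 or replicate 3 of day 10 (adjusted P = 0.0609, 0.052 and 0.0837).

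**Figure D5:**
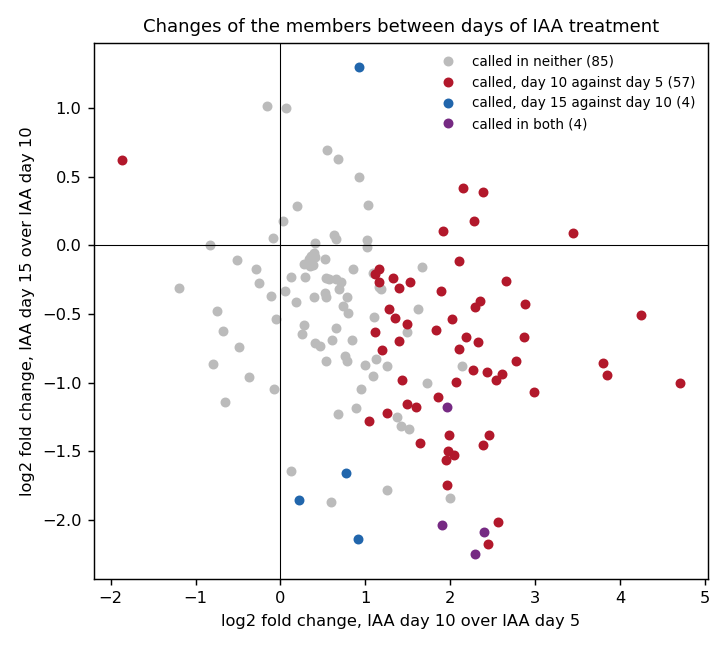
Fitted log2 fold change of each member from day 5 to day 10 (horizontal) and from day 10 to day 15 (vertical) under IAA. Of the 150 points, 57 were called from day 5 to day 10 alone, 4 from day 10 to day 15 alone, 4 in both and 85 in neither; most lie to the right of and below zero.

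From day 10 to day 15 the dirigent MA_138591g0010 fell by 2.25 on the log2 scale (SE 0.50, edgeR adjusted P = 0.0141), MA_55748g0010 fell by 2.14 (adjusted P = 0.0213) and MA_52559g0010 fell by 2.09 (adjusted P = 0.0371). The disease resistance homologue MA_10428616g0010 was the only member that rose, by 1.30 ± 0.30 (adjusted P = 0.0161). These calls were fragile. The dirigent was not called without replicate 1 of day 10, replicate 2 of day 15 or replicate 3 of day 15 (adjusted P from 0.0678 to 0.0906), MA_55748g0010 not without 5 of the 6 libraries (0.0564 to 0.156), MA_52559g0010 not without 4 (0.126 to 0.160) and MA_10428616g0010 not without 5 (0.0566 to 0.0783).

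Over the whole course, laccase 12 (MA_97119g0020) rose in all 4 treatments. From day 5 to day 15 its log2 fold change was 3.54 ± 0.44 under IAA (adjusted P = 4.81e-07), 1.36 ± 0.42 under BAP+IAA (0.0223), 2.82 ± 0.45 under BAP (8.98e-05) and 2.68 ± 0.44 in Mock (0.00135), all edgeR. MYB31 (MA_55123g0010) rose by 3.01 ± 0.59 under BAP+IAA (adjusted P = 0.000472), by 2.23 ± 0.48 under BAP (0.00126) and by 1.94 ± 0.43 in Mock (0.0139), and its change of 0.89 ± 0.36 under IAA (0.0474) stayed under the fold limit. The call in Mock was lost without replicate 1 or replicate 3 of day 5 (adjusted P = 0.14 and 0.068). Under IAA, ERF086-like (MA_24801g0010) fell by 1.79 (SE 0.56, adjusted P = 0.0118), LEP-like (MA_103035g0010) fell by 1.66 (SE 0.63, 0.0411) and MA_6067g0010 fell by 1.64 (SE 0.46, 0.00784). Without replicate 1 of day 5 ERF086-like had an adjusted P of 0.0715, and without replicate 3 of day 5 MA_6067g0010 had one of 0.055, and DESeq2 did not call it (0.249). LEP-like was not called when any of the 6 libraries was left out (0.0635 to 0.108).

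In the 3 treatments where the members were low, few were called between day 5 and day 15. Most members had too few counts there for a call, so a low number of calls is not evidence of little change. Under BAP+IAA 6 rose (4.0%) and 7 fell (4.67%), beside 5.37% and 3.1% of all genes. Without replicate 2 of BAP+IAA on day 5, 2 rose and 8 in all were called. Without replicate 1 of BAP+IAA on day 15, 3 rose. Under BAP 4 rose (2.67%) and 6 fell (4.0%), beside 8.09% and 2.42% of all genes. There 5 in all were called without replicate 1 of day 5 or without replicate 3 of day 15. Without replicate 2 of day 5, 2 rose, without replicate 3 of day 5, 3 fell, and without replicate 1 of day 15, 7 rose. In Mock 2 rose (1.33%) and 1 fell (0.667%), beside 0.772% and 0.318% of all genes, and 1 was called without replicate 1 of day 5. Remorin (MA_173856g0010), of a family of membrane-raft proteins, fell under BAP+IAA, with 2.28, 2.59 and 1.88 CPM on day 5, 2.07, 1.21 and 2.01 CPM on day 10 and 0.720, 0.613 and 0.681 CPM on day 15 (-1.76 ± 0.39, edgeR adjusted P = 0.00142), a call that no omitted library ended. ERF086-like (MA_24801g0010) fell there too (adjusted P = 0.0172), but not without replicate 3 of day 5 (0.208), replicate 1 of day 15 (0.0803) or replicate 2 of day 15 (0.0729). DUF4228 gene MA_10436843g0030 fell under BAP+IAA (-2.10 ± 0.57, adjusted P = 0.00856) and under BAP, where it had no count on day 15, against 0.910, 0.476 and 0.390 CPM on day 5 (0.000247).

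The others rested on few counts. Under BAP+IAA, MA_14850g0010 and MA_488017g0010 had 0.600, 0.0681 and 0.272 CPM and 0.240, 0.136 and 0.136 CPM on day 15, against no count on day 5 (edgeR adjusted P = 0.0083 and 0.0427), and MA_960928g0010 had 1.08, 0.0681 and 0.136 CPM on day 15 (0.0129). Without replicate 1 of BAP+IAA on day 15 none of the 3 was called (adjusted P = 0.0578, 0.112 and 0.351), MA_488017g0010 was lost without any of the 6 libraries (0.0602 to 0.112), and MA_960928g0010 also without replicate 2 of day 5 (0.051). Under BAP, MA_556977g0010 and MA_1043967g0010 reached at most 0.454 and 0.641 CPM on day 15 (0.0265 and 0.0298), and MA_96695g0010 had no count on day 15, against at most 0.910 CPM on day 5 (0.00556). MA_556977g0010 was not called without 5 of the 6 libraries (0.0661 to 0.105), MA_1043967g0010 not without 4 (0.0563 to 0.124) and MA_96695g0010 not without replicate 1 of day 5 (0.0555). MA_3236g0010 fell under BAP, with 0.0644, 0 and 0 CPM on day 15, against 3.56, 0.892 and 2.21 CPM on day 5 (7.16e-05), and in Mock, with 0.234, 0.359 and 0.0708 CPM on day 15, against 1.25, 2.49 and 1.39 CPM on day 5 (-2.85 ± 0.69, 0.0277). The Mock call was lost on leaving out any of the 6 libraries but replicate 3 of day 5 (0.0649 to 0.124). Under IAA it had 13.8, 16.8 and 21.5 CPM on day 10, against 5.08, 11.6 and 6.35 CPM on day 5.

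To look at values the choice had not used, the rule was applied to replicates of 2 numbers, and the chosen genes were read in the replicate left out. With replicate 1, 2 or 3 left out, 150, 129 and 150 genes were chosen, and 74.7%, 65.9% and 72.7% of them had a response to IAA of at least 0.7 on all 3 days in that replicate alone, beside 3.48%, 3.48% and 3.75% of all genes with a count. The response to IAA exceeded that to BAP+IAA on all days for 98.7%, 93.8% and 98.0%, beside 13.5%, 14.8% and 14.3% of all genes. A response to BAP+IAA under 0.5 on all days, in contrast, was found for 56.0%, 80.6% and 76.0%, beside 72.6%, 74.5% and 73.2% of all genes, so the share was below that of all genes for replicate 1 and above it for replicates 2 and 3. The whole rule was met in the left-out replicate by 30.0%, 45.7% and 42.7%, beside 0.2%, 0.326% and 0.245% of all genes. The genes were chosen for a response to IAA, which 3.48% to 3.75% of all genes had. Shares that involve that response are thus given as a description, and silencing by added BAP is not read from them.

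For comparison, 148 genes met the same limits on IAA and BAP but also had a response of at least 0.7 to BAP+IAA on all days. Their course under IAA was given by the same fit and is set beside that of the members as a description. From day 5 to day 10, 19 of the 148 rose (12.8%) and 24 fell (16.2%), against 60 (40%) and 1 (0.667%) of the 150 members, and the median log2 fold change was -0.12 over the comparison genes. The highest IAA mean was on day 10 for 35 of them (23.6%), against 115 members (76.7%). The difference between the sets was not tested.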

How the data were processed

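The deposited values are raw counts, whole reads per gene with no scaling. Per the study's methods, the authors removed ribosomal reads with SortMeRNA, trimmed with fastp, mapped to the Picea abies genome (v1.0) with STAR and counted with HTSeq in reverse-strand mode from poly(A) libraries. The treatment of reads with several alignments is not given in the sources used here, which leaves near-identical genes uncertain. All 36 columns were matched to samples by their descriptions, and 0 were left without a sample. The table holds 70736 genes, of which 17643 had no count, and no rows other than genes. Columns of the authors' own comparisons were not used.

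Counts were fitted in R 4.3.3 with edgeR 4.0.16 (filterByExpr on the 12 groups, TMM factors 0.952 to 1.07, glmQLFit robust with a mean per group over all 36 libraries and 24 residual degrees of freedom). The 38732 genes tested held 99.9% of counts. Tests were two-sided, adjusted over all genes tested. SE is the absolute log2 fold change divided by the root of F. CPM is the count over the library's total, computed in Python 3.11.15. Intervals are exact conditional 95% intervals of count ratios and, like floors of 3 counts over a group, cover counting error only. The fit was tested on simulated data. Replicates were separate pools of plants.

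The members, lists and tests were chosen with earlier results of these data known. Genes were named by rule: the 10 with the largest smallest response, the 5 with the most CPM under IAA (not per length), up to 4 per keyword list by the smallest response, those on the study's lists, the 3 that rose and fell most in each comparison of days, the last ones, the 3 lowest under BAP+IAA and those sharing a scaffold. Descriptions came from the study's tables, held in part. No genome was used, so no position or sequence is given. Alternatives were RLE size factors, no filter, the replicate number as a block, DESeq2 1.42.0, an adjusted P below 0.01, each library left out and other settings of the rule. One gene is not reported here.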

Additional observations from a re-analysis of the deposited data

Results flagged for a closer look

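The change of the IAA response between days was also fitted as an interaction (the change under IAA less the change in Mock), which flagged members whose course under IAA differed from that in Mock. From day 5 to day 10 the response of 12 members (8.0%) was called larger by edgeR, beside 3.95% of all genes tested, and from day 5 to day 15 that of 9 members (6.0%), beside 5.85%, so the second share is close to the background. None was called smaller, where 0 members had an unadjusted P below 0.05 in the first comparison and 3 in the second. For laccase 12 (MA_97119g0020) the response was larger on day 10 than on day 5 by 2.11 on the log2 scale (adjusted P = 0.0221), for MA_126621g0010 by 4.43 (0.0131) and for MA_3236g0010 by 4.15 (0.00113). The change under IAA itself was 3.44 for laccase 12, 2.66 for MA_126621g0010 and 1.19 for MA_3236g0010. For MA_3236g0010 most of the difference thus lay in Mock. It had between 0.2 and 0.222 CPM in Mock on day 10, against 1.25, 2.49 and 1.39 CPM on day 5. For MA_126621g0010 part of the difference also lay in Mock, with means of 0.401 CPM on day 5 and 0.0977 CPM on day 10. Those means rest on few counts, as this gene had 25 in all Mock libraries. The rule used the response on each of days 5, 10 and 15, though not its change. The counts and P values of the interaction are therefore given as a description, and nothing is read from them. Groups of 3 libraries were not searched for single outlying values.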

How the results depend on the processing

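The choice of members moved with the rule's settings. With 0.5 or 2 CPM added in place of 1, 93 and 81 of the 150 members were chosen again, and without replicate 1, 2 or 3 of every group between 97 and 110 were, although 129 to 181 genes met the rule. An absolute limit on BAP+IAA kept 138, and TMM and RLE scaling 143 and 145. At an adjusted P below 0.01, members called numbered 1 between IAA day 15 and day 10, 7 under BAP+IAA, 5 under BAP and 1 in Mock between day 15 and day 5. With each library left out, members called lay between 45 and 60 (IAA day 10 against day 5), 1 and 8 (day 15 against day 10), 28 and 36 (day 15 against day 5), 8 and 15 (BAP+IAA), 5 and 13 (BAP) and 1 and 3 (Mock). The median share of the response left without each BAP+IAA library, chosen after seeing the data, lay between 0.726% and 1.65% on day 5, 0.14% and 0.504% on day 10 and 0.416% and 3.28% on day 15. Of 319 refits of 29 changes named above, none changed direction and 77 ended the call. Libraries of the same replicate number were at most weakly alike (mean correlation of deviations 0.061, with 60 of 198 pairs over 0.1). The mean for other numbers, -0.031, largely follows from that value, since deviations from a group mean cancel out. With the replicate block 63, 11 and 35 members were called in the 3 IAA comparisons, 13 under BAP+IAA, 12 under BAP and 3 in Mock. The cause of these shifts was not tested.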
